A study of Mus musculus with 36 samples.

Results

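Among the genes measured in white adipose tissue of aging male mice were 10 listed together as sperm and epididymal genes. They are the protamine genes Prm1 and Prm2, the transition protein genes Tnp1 and Tnp2, Smcp, Odf1, Adgrg2, Fam183b, Mmp7 and Plet1. The 10 genes were taken by name, out of 19938 genes that had a probe set (a group of oligonucleotides read as 1 value) with a single gene symbol. Each was measured by 1 such probe set, and no probe set shared its symbol with another gene. The list was chosen by the genes' values on the adipose arrays, between genotypes and between ages, so these values are given as a description and no test of them is reported. The data went against reading the 10 as a single group. The 6 sperm genes (Prm1, Prm2, Tnp1, Tnp2, Smcp and Odf1) were highest in the pool of 24-month Myc+/- adipose, and the 4 others were lower in both Myc+/- pools than in wild type. They are therefore described as 2 sets, the sperm genes and the set led by Fam183b and Mmp7.

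The study compared male C57Bl/6 mice that carry 1 inactivated Myc allele (Myc+/-) with wild type males that were 5 or 24 months old, and took liver, skeletal muscle and white adipose from them. Within each of the 12 combinations of tissue, age and genotype, equal amounts of RNA from all mice were mixed into 1 pool. Every pool was hybridised 3 times to Affymetrix Mouse Gene 1.0 ST arrays, which gave 36 technical arrays. A pool held 6 wild type mice at 5 months, 5 wild type mice at 24 months, 5 Myc+/- mice at 5 months or 8 Myc+/- mice at 24 months, and the same cohorts gave the 3 tissues. No treatment was given, the fat depot is not named in the labels, and how the Myc allele was inactivated is not given in the sources used here. Because 1 pool stands for each group, the spread between arrays shows the technical error of measuring that RNA mixture and not the spread between mice, and how many mice of a pool carried a difference cannot be told.

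During the last stages of sperm formation the histones of the haploid spermatid are exchanged first for transition proteins, which Tnp1 and Tnp2 encode, and then for the protamines, which pack the DNA of the sperm head. Smcp encodes a cysteine-rich protein that coats the mitochondria of the sperm midpiece, and Odf1 a protein of the outer dense fibres of the tail. In normal tissue these transcripts are made by spermatids in the testis. Adgrg2 encodes an adhesion G protein-coupled receptor known from the epithelium of the efferent ducts and epididymis, the ducts through which sperm leave the testis. Mmp7 encodes matrilysin, a metalloprotease secreted by glandular and ductal epithelia, and Plet1 encodes a surface protein of epithelial and trophoblast cells. The product of Fam183b is less well described. In male mice one of the white fat depots, the epididymal pad, is attached to the epididymis.

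The sequences just upstream of 3 of the genes are shown because they hold matches to the recognition motif of a factor class that acts in spermatids or in ciliated cells. RefSeq promoter windows (GRCm38.p6) were found for 9 of the 10 genes, with 10 windows in all since Mmp7 had a pair, and the 250 bases before each gene's start were searched on both strands. A motif like the cyclic AMP response element, TGANNTCA, which is the kind of site that the spermatid activator CREM binds, was present in 11.9% of 32851 windows. A motif like the X-box of RFX factors, which act on genes of cilia (the letters GTTGCC, any 2 letters, G, any 2 letters and AC), was present in 0.566% of them. The motifs were chosen with these windows in view, so a match is a description. The 150 bases before the start are printed 5′ to 3′ on the gene's own strand (minus in each case), with the motif in capitals: Prm1 at chr16:10796824-10796973, Tnp1 at chr1:73015900-73016049 and Fam183b at chr11:58801961-58802110.
Prm1: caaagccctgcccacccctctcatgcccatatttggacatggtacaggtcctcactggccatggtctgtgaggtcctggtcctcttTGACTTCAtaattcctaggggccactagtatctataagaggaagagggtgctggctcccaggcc
Tnp1: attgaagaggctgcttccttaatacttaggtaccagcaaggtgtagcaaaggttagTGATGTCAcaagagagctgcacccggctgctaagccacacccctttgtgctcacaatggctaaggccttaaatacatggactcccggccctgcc
Fam183b: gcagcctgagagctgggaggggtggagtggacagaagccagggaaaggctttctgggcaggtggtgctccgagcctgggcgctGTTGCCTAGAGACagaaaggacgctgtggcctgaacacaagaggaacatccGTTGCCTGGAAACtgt

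The Prm1 match began 64 bases and the Tnp1 match 94 bases before the start. Fam183b held 2 X-box-like matches, 67 and 16 bases before the start. Plet1 held a match to the first motif as well (TGACCTCA, 62 bases before the start), so that motif was not limited to the sperm genes. Neither motif was found upstream of Prm2, Tnp2, Smcp, Adgrg2 or Mmp7. Prm1, Prm2, Prm3 and Tnp2 are neighbours on 1 strand of the same chromosome in the RefSeq gene table.

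Values are log2 expression values per probe set, and a difference of 1 between pools is a 2-fold difference. The 36 arrays had medians of 6.95 to 7.14, and arrays of 1 pool correlated at 0.994 to 0.997 on average across probe sets. Within a pool the median probe set had an SD over arrays of 0.112 in adipose, 0.118 in liver and 0.121 in muscle. Myc itself was lower in Myc+/- than in wild type in all 6 pairs of pools, by -0.32 (5 months) and -0.81 (24 months) in adipose, and by -0.24 to -0.82 in the other tissues. The level of a probe set depends on its own oligonucleotides, so levels are compared between pools and never between genes. In bulk tissue, fewer cells of a type and less RNA per cell cannot be told apart, and the same holds for more of either.

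The 6 sperm genes were all highest in 24-month Myc+/- adipose, and the arrays of that pool lay above every array of the other adipose pools for each of them. Prm1 (probe set 10437684) read 11.71, 11.55 and 11.62 on its 3 arrays there. It read 8.74, 8.78 and 7.82 in 24-month wild type adipose, 7.48, 7.52 and 7.42 in 5-month wild type and 7.06, 7.01 and 7.12 in 5-month Myc+/- adipose. Prm1 was thus ordered 24-month Myc+/-, 24-month wild type, 5-month wild type and 5-month Myc+/-, with no overlap between neighbours, although 1 of the 24-month wild type arrays was well below the other two. The difference between the genotypes was 3.18 at 24 months, or 9.08-fold, and -0.41 at 5 months. Between the ages it was 4.57 (23.7-fold) in Myc+/- and 0.97 (1.96-fold) in wild type.

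Prm2 (10437680), the second protamine, read 10.49, 10.30 and 10.73 in 24-month Myc+/- adipose and 8.36, 8.37 and 8.82 in 24-month wild type. In the 5-month pools it read 7.36, 7.14 and 7.42 (wild type) and 6.91, 7.14 and 6.92 (Myc+/-). The order of the pools was that of Prm1, with the nearest arrays of the 5-month pools both at 7.14. At 24 months Prm2 was 1.99 higher in Myc+/- (3.98-fold), and with age it was 3.52 higher in Myc+/- (11.5-fold) and 1.21 higher in wild type (2.31-fold).

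The transition protein genes stood apart in the 24-month Myc+/- pool alone. Tnp2 (10437673) read 8.32, 8.79 and 8.54 there, against 6.54, 6.49 and 6.43 in 24-month wild type adipose. Its 5-month arrays read 6.20, 6.47 and 6.31 in wild type and 6.26, 6.00 and 6.03 in Myc+/-. The wild type pools of the 2 ages overlapped, as did the 5-month pools of the 2 genotypes, and the 24-month difference between genotypes was 2.07 (4.20-fold). Tnp1 (10355511) read 6.84, 6.94 and 6.91 in 24-month Myc+/- adipose. Its other adipose arrays read 5.80, 5.78 and 5.81 (24-month wild type), 5.85, 5.82 and 5.67 (5-month wild type) and 6.06, 5.36 and 5.97 (5-month Myc+/-). Tnp1 was 1.10 higher in Myc+/- at 24 months (2.15-fold), and its 3 other pool means were 5.78 to 5.80.

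Genes of the midpiece and the tail gave the order seen for the protamines. Smcp (10499906), the mitochondrial capsule gene, read 9.71, 9.78 and 9.76 in 24-month Myc+/- adipose and 7.63, 7.61 and 7.79 in 24-month wild type. At 5 months it read 5.79, 5.68 and 5.58 in wild type and 5.34, 5.35 and 5.39 in Myc+/-. No neighbours in this order overlapped. Smcp differed by 4.39 between the ages in Myc+/- (20.9-fold), by 2.00 in wild type (3.99-fold) and by 2.07 between the genotypes at 24 months (4.19-fold). Odf1 (10423798), the outer dense fibre gene, read 7.34, 7.73 and 7.63 in 24-month Myc+/- adipose and 6.24, 6.43 and 6.81 in 24-month wild type. Its 5-month arrays read 6.00, 5.94 and 5.69 in wild type and 5.78, 5.80 and 5.75 in Myc+/-, and these overlapped. The Odf1 difference between genotypes was 1.07 at 24 months (2.10-fold), and that between ages was 1.79 in Myc+/- and 0.61 in wild type.

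**Figure D1:**
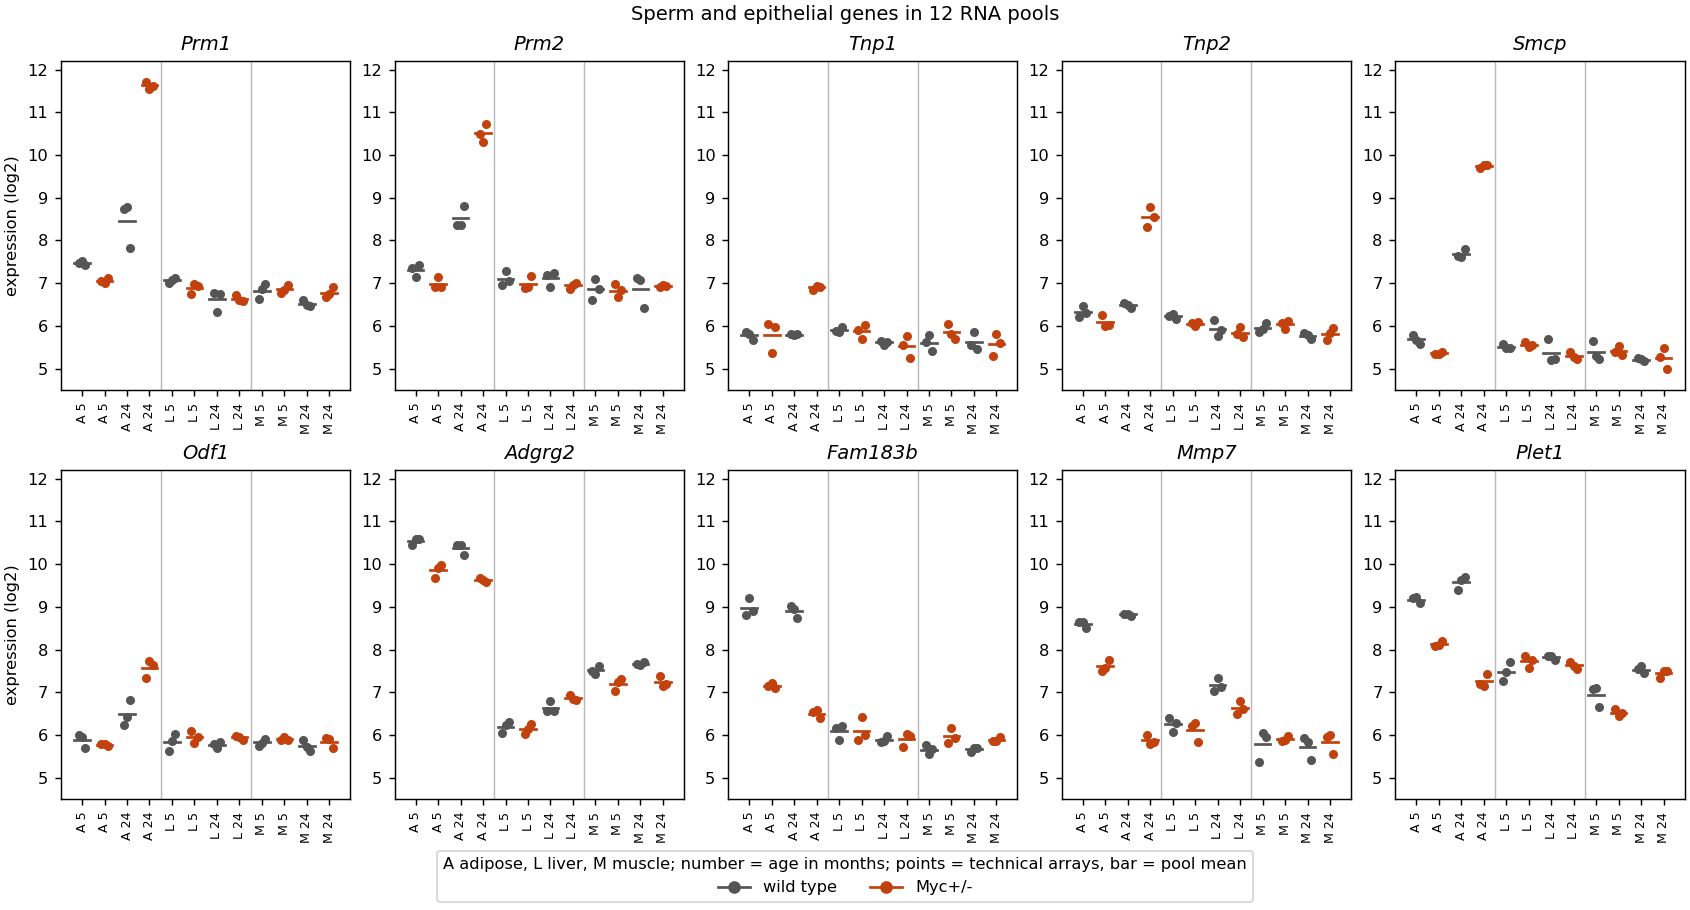
Each panel plots 1 gene, with the log2 expression value on the vertical axis and the 12 pools on the horizontal axis, marked by tissue and age in months; points are the 3 technical arrays of a pool, short bars the pool means and colours the genotypes. The 6 sperm genes peak in 24-month Myc+/- adipose (Prm1 at a mean of 11.63), while Fam183b, Mmp7 and Plet1 are lowest in that pool among the adipose pools. The Adgrg2 mean is lowest there too (9.64 against 9.86 in 5-month Myc+/-), with arrays of these pools overlapping.

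Liver and muscle of the same cohorts gave the level at which each sperm probe set read in other tissues. Over the 8 liver and muscle pools Prm1 lay between 6.52 and 7.07, Prm2 between 6.83 and 7.11, and Smcp between 5.21 and 5.56. Tnp1 lay between 5.52 and 5.90, Tnp2 between 5.77 and 6.23 and Odf1 between 5.75 and 5.96. The 24-month Myc+/- adipose pool stood above the highest of these pools by 4.56 for Prm1 (23.6-fold), 4.19 for Smcp (18.2-fold), 3.39 for Prm2 (10.5-fold), 2.32 for Tnp2 (5.00-fold), 1.61 for Odf1 (3.05-fold) and 1.00 for Tnp1 (2.00-fold). In 24-month wild type adipose Smcp stood 2.12, Prm2 1.40 and Prm1 1.38 above it, while Tnp1 lay within the liver and muscle range. At 5 months the Myc+/- adipose pool was above all liver and muscle pools for none of the 6 genes.

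Counted by pool, 6 of 6 sperm genes in 24-month Myc+/- adipose were above all 8 liver and muscle pools, 5 of them by more than 1 log2. Of all 21789 probe sets with 1 symbol, 24.0% were above in that pool, and 3.16% by more than 1. In 24-month wild type adipose 5 were above and 3 by more than 1, against 23.6% and 2.75% of all probe sets. At 5 months 4 were above in wild type and 0 in Myc+/-, with none by more than 1, against 21.8% and 22.3% of all probe sets above and 2.27% and 2.41% by more than 1. The genes were listed for their adipose values, so these counts are a description.

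The remaining genes were lower in Myc+/- adipose at both ages. At 24 months this was opposite to the sperm genes, while at 5 months the means of 5 of the 6 sperm genes were lower in Myc+/- too, by -0.10 to -0.41, and that of Tnp1 was 0.02 higher. Fam183b (10386211) read 8.81, 9.21 and 8.90 in 5-month wild type adipose and 7.14, 7.22 and 7.11 in 5-month Myc+/-. At 24 months it read 9.01, 8.96 and 8.75 in wild type and 6.53, 6.58 and 6.39 in Myc+/-. The wild type pools overlapped and the Myc+/- pools lay below them, with a difference between genotypes of -1.82 at 5 months (3.52-fold lower) and -2.40 at 24 months (5.29-fold lower).

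Mmp7 (10583133), the matrilysin gene, read 8.66, 8.64 and 8.51 in 5-month wild type and 7.50, 7.57 and 7.76 in 5-month Myc+/- adipose. Its 24-month arrays read 8.84, 8.83 and 8.79 in wild type and 6.00, 5.78 and 5.84 in Myc+/-. No pools overlapped, and the order from the top was 24-month wild type, 5-month wild type, 5-month Myc+/- and 24-month Myc+/-. Mmp7 was 1.99-fold lower in Myc+/- at 5 months and 7.72-fold lower at 24 months. Plet1 (10585186) had the same order. It read 9.21, 9.23 and 9.08 in 5-month wild type, 8.07, 8.10 and 8.21 in 5-month Myc+/-, 9.40, 9.63 and 9.69 in 24-month wild type and 7.20, 7.16 and 7.44 in 24-month Myc+/- adipose. The Plet1 difference between genotypes was -1.05 at 5 months (2.06-fold lower) and -2.31 at 24 months (4.96-fold lower).

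Adgrg2 (10602896), the receptor of the efferent ducts, differed least. Its arrays read 10.44, 10.58 and 10.59 in 5-month wild type, 9.68, 9.92 and 9.97 in 5-month Myc+/-, 10.45, 10.45 and 10.22 in 24-month wild type and 9.69, 9.64 and 9.59 in 24-month Myc+/- adipose. The genotypes did not overlap at either age, while the ages overlapped in each genotype. Adgrg2 was 1.60-fold lower in Myc+/- at 5 months and 1.66-fold lower at 24 months.

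With age the gap between the genotypes widened for Mmp7, Plet1 and Fam183b and was nearly the same for Adgrg2. In Myc+/- adipose the 24-month pool was lower than the 5-month pool by -1.73 for Mmp7 (3.33-fold), -0.86 for Plet1 (1.81-fold), -0.66 for Fam183b (1.58-fold) and -0.22 for Adgrg2. In wild type the differences were 0.22, 0.40, -0.07 and -0.17 in the same order. The sperm genes were higher in the 24-month Myc+/- pool than in the 5-month one, so within Myc+/- adipose Mmp7, Plet1 and Fam183b ran against them with age, while the Adgrg2 arrays of the 2 ages overlapped.

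**Figure D2:**
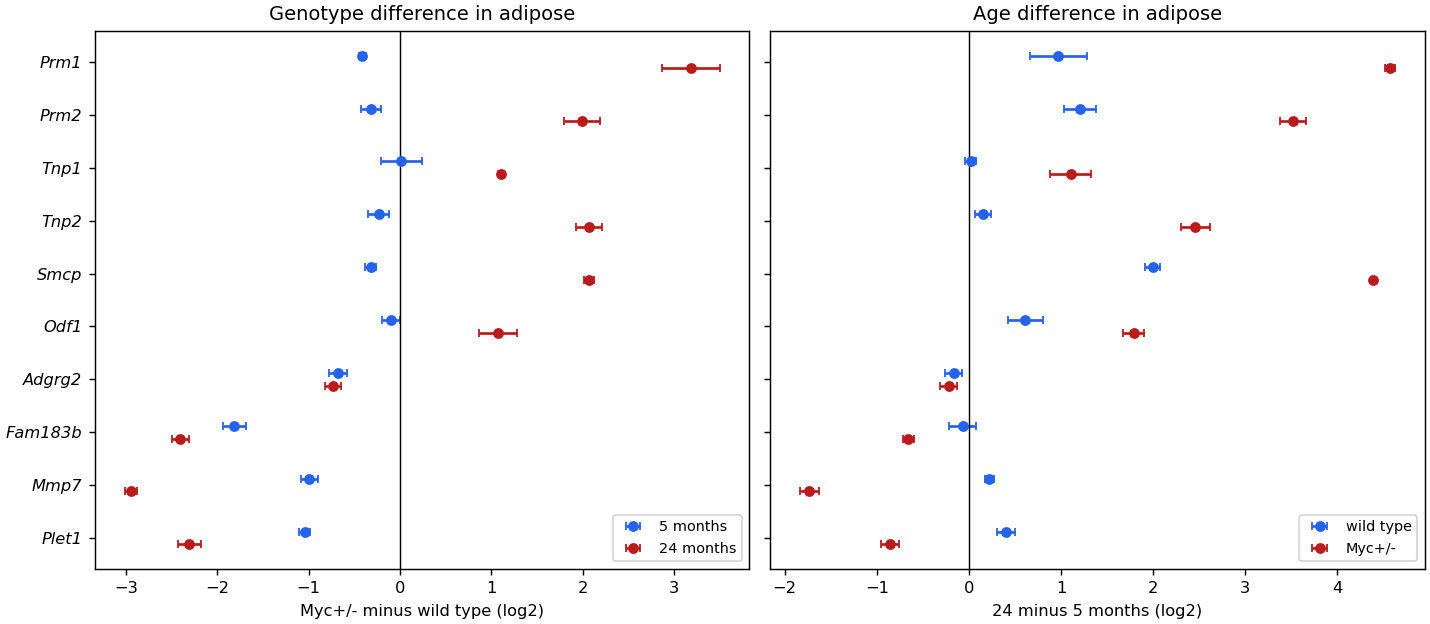
Differences in log2 expression between adipose pools are plotted for the 10 genes, for the genotypes at each age and for the ages in each genotype; bars are standard errors over the 3 technical arrays of each pool and do not cover the spread between mice. At 24 months all 6 sperm genes lie above 0 (1.07 to 3.18) and the other 4 genes below 0 (-0.73 to -2.95).

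Compared with liver and muscle, this set was high in adipose of wild type mice. The 5-month wild type adipose pool stood above the highest liver or muscle pool by 2.87 for Adgrg2 (7.31-fold), 2.87 for Fam183b (7.31-fold), 1.44 for Mmp7 and 1.35 for Plet1. In 24-month Myc+/- adipose only Adgrg2 (1.97) and Fam183b (0.40) remained above it, and Mmp7 and Plet1 were below the highest pool by -1.29 and -0.56. Counted by pool, 4 of 4 were above all 8 pools in both wild type adipose pools and in 5-month Myc+/- adipose, and 2 of 4 in 24-month Myc+/- adipose. Of all probe sets, 21.8% (5-month wild type), 22.3% (5-month Myc+/-), 23.6% (24-month wild type) and 24.0% (24-month Myc+/-) were above. By more than 1 log2 the counts were 4, 2, 4 and 1 in that order, against 2.27%, 2.41%, 2.75% and 3.16%. These genes too were listed for their adipose values, so the counts are a description.

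In liver and muscle, which the choice of genes was not stated to use, the genes were tested with limma on all 21789 probe sets. On single arrays a probe set was called at a Benjamini-Hochberg adjusted p under 0.05 and a difference of at least 1.5-fold, which compares RNA mixtures. None of the 10 genes was called between genotypes in either tissue, where 1, 2, 3 and 1 of them had an unadjusted p under 0.05 (liver and muscle, 5 then 24 months in each). Some passed the adjusted threshold but fell short of 1.5-fold, each being lower in Myc+/-. These were Mmp7 in 24-month liver (-0.53, limma adjusted p = 0.0136) and Adgrg2 in 24-month muscle (-0.43, limma adjusted p = 0.00173). Plet1 in 5-month muscle was the other (-0.42, limma adjusted p = 0.0344). Of all probe sets, 0.289% were called higher and 0.0872% lower in 5-month Myc+/- liver, 0.913% and 0.601% in 24-month liver, 0.0459% and 0.496% in 5-month muscle, and 0.353% and 0.968% in 24-month muscle. Over these and the age comparisons in liver and muscle, the sperm genes differed by -0.45 to 0.26, and none was called. In wild type liver Prm1 (-0.45, limma adjusted p = 0.00987) and Tnp2 (-0.30, limma adjusted p = 0.0284) were lower at 24 months but under 1.5-fold.

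With age, 3 genes of the other set were called higher on single arrays. Mmp7 was 0.91 higher in 24-month than in 5-month wild type liver (7.16 against 6.26, 1.87-fold, limma adjusted p = 2.57e-06). Adgrg2 was 0.71 higher in 24-month Myc+/- liver (6.86 against 6.15, 1.64-fold, limma adjusted p = 4.9e-08). Plet1 was higher in 24-month muscle, by 0.59 in wild type (1.51-fold, limma adjusted p = 1.94e-05) and 0.92 in Myc+/- (1.89-fold, limma adjusted p = 5.49e-09). The count of 1 gene in each comparison stands beside 7.06% of all probe sets called higher and 2.93% lower with age in wild type liver, 6.28% and 2.17% in Myc+/- liver, 4.51% and 3.43% in wild type muscle and 3.30% and 2.51% in Myc+/- muscle. Without the array numbered 3 of each pool Plet1 was not called in wild type muscle, and without that numbered 1 the count in Myc+/- liver was 2. Other age differences of this set in liver passed the adjusted threshold but fell short of 1.5-fold, each being higher at 24 months. These were Adgrg2 (0.45, limma adjusted p = 0.000124) and Plet1 (0.34, limma adjusted p = 0.00914) in wild type. In Myc+/- it was Mmp7 (0.53, limma adjusted p = 0.00391).

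A fit on the 12 pool means, in which the pool is the replicate and the genotype is averaged over both ages, called Adgrg2 alone, higher with age in liver (0.58 ± 0.08 SE, limma adjusted p = 0.00265). Plet1 in muscle was 0.76 ± 0.27 (SE) higher with age, with a limma adjusted p of 0.0784. In this fit the error is shared over tissues, so the spread of the sperm genes in adipose enters it, and the SE of Prm1 was 0.68. With age 18.9% of all probe sets were called higher and 13.2% lower in liver, and 13.9% and 11.3% in muscle. For the genotype 0% were called in either tissue and direction, and 1475 probe sets in liver and 1106 in muscle had an unadjusted p under 0.05. Without any 1 of the 4 adipose pools this fit called 3 of the 10 genes with age in liver and 1 in muscle.

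Genes of spermatids and sperm that are not among the 10 ran the way of the sperm genes at 24 months. Of 53 measured genes of a list of such genes, 52 had a higher mean in Myc+/- than in wild type adipose at 24 months, with a median difference of 0.32, where the median over all probe sets was 0.0079. The mean level of the 53 was 5.97 in 5-month wild type, 5.95 in 5-month Myc+/-, 6.10 in 24-month wild type and 6.56 in 24-month Myc+/- adipose, and 5.86 to 6.04 in the liver and muscle pools. On single arrays 13 of the 53 were called higher and 0 lower, against 1.07% higher and 0.776% lower over all probe sets. Crisp2, which encodes a protein of the acrosome and tail, read 5.35 in 5-month wild type, 6.03 in 5-month Myc+/-, 6.79 in 24-month wild type and 8.25 in 24-month Myc+/- adipose. In the same order, Meig1, which is needed for sperm tail formation, read 6.70, 6.07, 7.84 and 9.21. Gapdhs, the sperm form of a glycolytic enzyme, read 6.11, 6.18, 6.72 and 7.76.

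Cabs1, a calcium-binding protein of spermatids, read 5.19, 5.19, 5.65 and 7.14, Oaz3, the antizyme of spermatids, 5.93, 5.94, 6.30 and 7.64, and Gsg1, a germ cell gene, 6.59, 6.37, 7.08 and 8.17. All 6 named genes were called higher in Myc+/- at 24 months and with age in Myc+/-. Prm3, which lies between Prm2 and Tnp2 in the gene cluster and was picked out after its values were seen, did not stand apart, at 7.23, 7.10, 7.16 and 7.19. At 5 months 1 gene of the list was called higher (Crisp2) and 1 lower (Meig1) in Myc+/-, against 1.04% and 0.275% over all probe sets.

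With age 18 of the 53 were called higher in Myc+/- and 3 in wild type (Gapdhs, Crisp2 and Meig1), and 0 lower in either. Over all probe sets 3.63% were called higher and 1.44% lower with age in Myc+/-, and 4.30% and 1.82% in wild type. Without the array numbered 2 of each pool the count in wild type was 5. Restricting the test to probe sets above the 40th percentile in adipose, which 7 of the 53 passed, left 2 called between genotypes at 24 months and 3 with age in Myc+/-, and the others were not tested.

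With the pool as the replicate, 10 of the 53 were called higher with age in adipose and 0 lower, against 7.69% and 7.43% of all probe sets. The count was 17 without either wild type adipose pool and 3 without either Myc+/- adipose pool. For the genotype averaged over both ages this fit called 0 of the 53 in either direction, and 11 had an unadjusted p under 0.05. Over all probe sets it called 0% higher and 0.00459% lower, and 1769 had an unadjusted p under 0.05. The 1 probe set called lower was that of Fam183b, which was chosen by these values, so its call is no evidence about it, and with adipose fitted alone the count was 0. Without either 5-month adipose pool 8 of the 53 were called higher. Leaving out an adipose pool leaves 1 pool against 1 pool for each adipose contrast (for the genotype here, those of 24 months), with an error taken from liver and muscle alone. The age counts above and the further counts without an adipose pool rest on the same kind of comparison.

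Few markers of earlier germ cells or of the somatic cells of the testis were called. Of 20 genes of spermatocytes and spermatogonia, 1 was called higher in Myc+/- at 24 months, Mael, a gene of the piRNA pathway, at 4.55, 4.24, 5.46 and 7.04 over the adipose pools in the order above. Sycp3, a protein of the synaptonemal complex, read 7.37, 7.64, 8.63 and 9.34, and was called higher with age in both genotypes, as was Mael. Its mean was above the liver and muscle range of 4.48 to 6.47 in all 4 adipose pools. Of 11 Sertoli and Leydig cell genes, 1 was called at 24 months, the steroid hydroxylase gene Cyp17a1 (6.10, 5.95, 5.83 and 6.94), which read up to 10.55 in the other tissues.

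Genes of the epididymal epithelium were called in both directions. The mean level of the 34 measured was 5.58, 5.70, 5.63 and 5.98 over the adipose pools, and 5.39 to 5.71 in liver and muscle. Of these genes, 10 were called higher and 2 lower in 24-month Myc+/- adipose, and 3 higher and 1 lower at 5 months. Wfdc10, a protease inhibitor-like gene of the epididymis, read 6.79, 7.14, 7.24 and 9.07 over the 4 adipose pools, and Spint3, a Kunitz-type inhibitor, read 6.05, 6.21, 5.84 and 7.59. Bsph2, a sperm-binding protein gene, read 4.12, 4.27, 4.26 and 6.28, and Adam7, a gene of the epididymal epithelium, read 4.96, 5.64, 5.51 and 7.01.

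Of the named genes of this list, Spag11b and Lcn5 peaked in another pool. Spag11b, a defensin-like gene, was highest in 24-month wild type adipose (4.99, 5.37, 6.52 and 5.17). Lcn5, a lipocalin of the epididymal lumen that was picked out after its values were seen, was highest in 5-month Myc+/- adipose (5.97, 7.31, 5.92 and 6.14). Cuzd1 peaked in 24-month Myc+/- adipose (8.34, 7.60, 8.72 and 9.12) and was above its liver and muscle range of 6.13 to 7.15 in every adipose pool. With age 10 of the 34 were called higher and 1 lower (Lcn5) in Myc+/-, and 1 higher (Spag11b) in wild type. The pool-level fit called 0 of the 34 for the genotype, 13 having been higher at an unadjusted p under 0.05, and 3 higher with age. Without either 5-month pool it called 8 higher for the genotype, and without either 24-month pool 1. Only 3 of the 34 passed the 40th percentile in adipose, of which 2 were called higher between the genotypes at 24 months.

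Among smaller lists of the tract, 1 of 12 genes of the vas deferens and accessory glands was called at 24 months (Spink1, higher), and 1 of 6 of epididymal clear cells (Atp6v0d2, lower). Atp6v0d2, a proton pump subunit that other cell types also use, read 7.45, 8.58, 10.92 and 9.58. Of 8 kidney genes 3 were called higher in 24-month Myc+/- adipose. Kap, an androgen-regulated kidney gene, read 6.55, 7.56, 6.86 and 9.56, and Slc34a1, a phosphate transporter, read 7.34, 7.19, 7.50 and 9.07.

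Motile cilium genes ran the way of Fam183b and Mmp7. The 28 measured had a mean level of 6.60, 6.31, 6.67 and 6.16 over the adipose pools. Of these genes, 0 were called higher and 7 lower in 24-month Myc+/- adipose, with a median of -0.32, and 0 higher and 4 lower at 5 months, with a median of -0.21. Sntn, a protein of the ciliary tip, read 7.76, 6.30, 7.99 and 4.66 over the adipose pools. Tmem212 read 7.35, 6.64, 7.49 and 5.87, and Rsph4a, a radial spoke gene, read 6.26, 5.60, 6.39 and 4.57, these 3 being called lower in Myc+/- at both ages. Dnah5, an outer dynein arm gene, read 6.25, 5.89, 6.38 and 5.42, and Cdhr3, a cadherin of ciliated cells, 7.22, 6.97, 7.30 and 6.44. Both were called lower at 24 months.

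Enkur was called lower at 5 months (5.47 against 4.81), with 5.72 and 5.20 at 24 months. Foxj1, the master regulator of motile cilia, was picked out after its values were seen and read 6.29, 6.12, 6.34 and 6.00, and it was not called in either comparison. With age 0 of the 28 were called in wild type, where 1 was higher and 1 lower at an unadjusted p under 0.05, and 3 were called lower in Myc+/-. The pool-level fit called 0 of the 28 for the genotype, where 17 were lower at an unadjusted p under 0.05. Without either 5-month pool it called 5 lower, and without either 24-month pool 1. Among the 4 that passed the 40th percentile in adipose, 0 were called lower at either age.

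**Figure D3:**
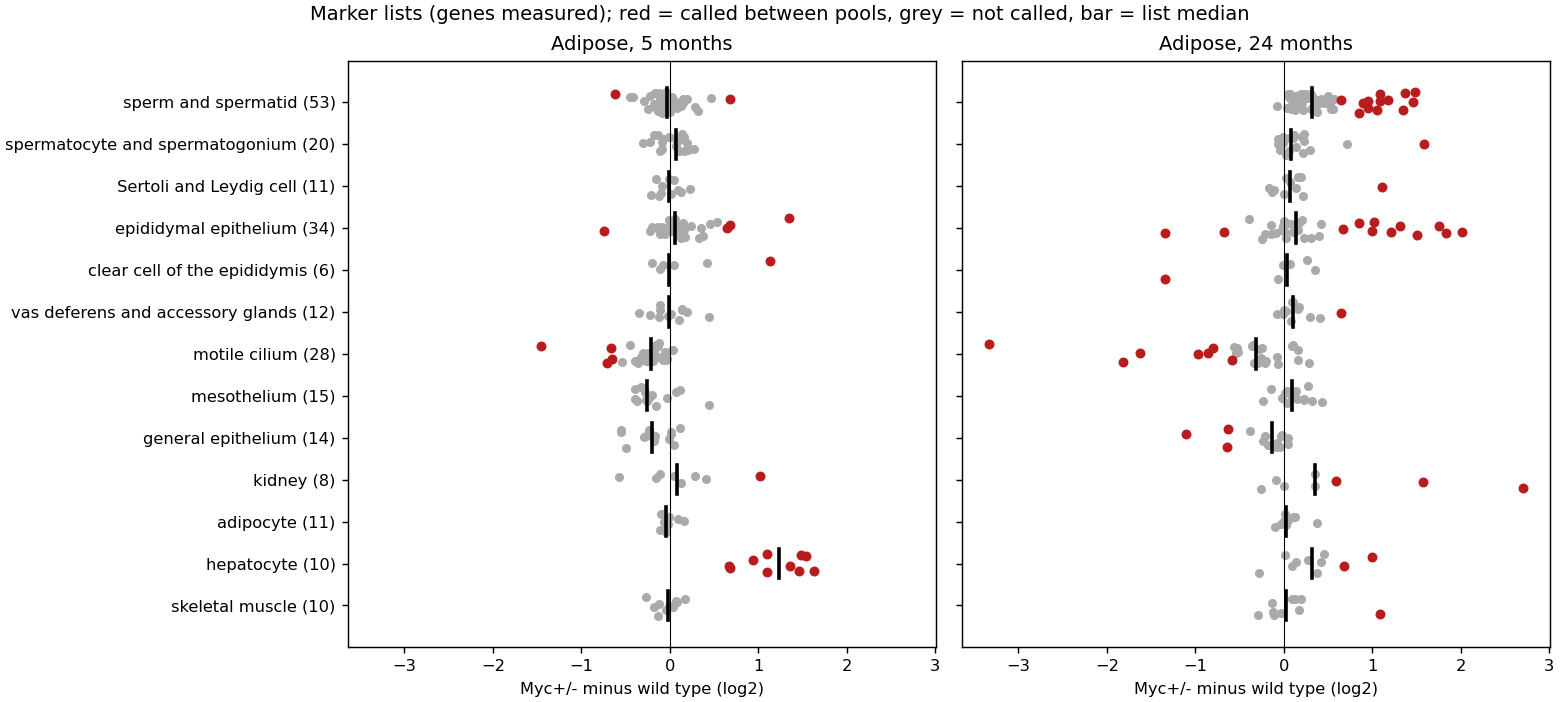
For each marker list the log2 differences of its measured genes between Myc+/- and wild type adipose are plotted at each age, with a point for each gene (red where called on single arrays, grey where not) and a bar at the list median. At 24 months 52 of 53 sperm and spermatid genes lie above 0 and the motile cilium genes have a median of -0.32, while adipocyte genes lie near 0 (median 0.029).

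General epithelial genes were lower in part, with 3 of 14 called in 24-month Myc+/- adipose (Elf3, Prom1 and Epcam) and 0 at 5 months, where 5 were lower at an unadjusted p under 0.05. Elf3, an epithelial transcription factor gene, read 7.08, 6.58, 7.11 and 6.00. Mesothelial genes, which mark the lining of visceral fat depots, were on average well above liver and muscle in all adipose pools. Over 15 such genes the mean was 9.33 to 9.70 in the adipose pools, against 7.44 to 7.76 in liver and 6.79 to 6.92 in muscle. Krt8 and Krt18 went the other way in liver, reading up to 12.85 and 12.14 there and at most 9.55 and 9.05 in adipose. None of the 15 was called between genotypes at either age. At 5 months their median was -0.26, and 9 were lower and 1 higher in Myc+/- at an unadjusted p under 0.05, so that they leaned the way of Fam183b and Mmp7 at that age. At 24 months the median was 0.087, with 1 lower and 4 higher. Wt1, a mesothelial transcription factor gene, was called higher with age in both genotypes (9.33, 9.78, 10.36 and 10.59).

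The adipose pools read as fat throughout. The mean of 11 adipocyte genes was 12.98 to 13.37 in the 4 adipose pools. It was 7.91 to 8.23 in liver and 10.73 to 11.89 in muscle, so the muscle pools also held signal of these genes. Of the 11 genes, 0 were called between adipose genotypes at either age, with 0 at 5 months and 1 at 24 months at an unadjusted p under 0.05. With age the means of all 11 were lower in both genotypes, with a median of -0.43 in wild type and -0.30 in Myc+/-, and 9 and 8 of them at an unadjusted p under 0.05. On single arrays Lep, the leptin gene, was the only one of them called, lower in both genotypes (13.34, 13.50, 12.42 and 12.79), and the pool-level fit called 3 lower. Of 10 hepatocyte genes, 10 were called higher in Myc+/- adipose at 5 months and 2 at 24 months, and Alb, the albumin gene, read 9.93, 11.47, 11.30 and 11.72. With age 9 of the 10 were called higher in wild type and 1 in Myc+/-, against 4.30% and 3.63% of all probe sets. The mean of the 10 was 7.34, 8.54, 8.25 and 8.57 over the adipose pools in the same order, and thus lowest in 5-month wild type. Of 10 skeletal muscle genes 0 were called at 5 months, with 1 lower at an unadjusted p under 0.05, and 1 at 24 months (Acta1, higher). At 24 months, then, 13 of 53 sperm and spermatid, 10 of 34 epididymal and 3 of 8 kidney genes were called higher in Myc+/-. So were 2 of 10 hepatocyte, 1 of 10 skeletal muscle and 1 of 20 spermatocyte and spermatogonium genes. The same held for 1 of 11 Sertoli and Leydig cell and 1 of 12 vas deferens and accessory gland genes, against 1.07% of all probe sets. Those called lower were 7 of 28 motile cilium, 3 of 14 general epithelial, 2 of 34 epididymal and 1 of 6 clear cell genes. Over all probe sets 0.776% were called lower. The part of these lists in the differences of the 10 genes was not tested.

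The genes whose adipose pattern was most like that of the sperm genes were ranked by how far the 24-month Myc+/- pool mean lay above the highest of the other 3 adipose pools. Of 19928 other genes, 70 lay more than 1 log2 above, or 0.351%. The first was Spink8, a Kazal-type protease inhibitor gene, at 4.81, 5.44, 4.67 and 10.15 (26.1-fold above the next pool). Serpina1f, a serpin gene, followed at 5.13, 5.89, 5.21 and 9.25, or 10.3-fold. Among the first 15 were further inhibitor and host defence genes, namely Defb26 (2.72 above the next pool), Wfdc15b (2.49), Serpina16 (2.20) and Defb39 (2.04). Pate1 (2.13), Rnase12 (2.02) and Ceacam10 (2.03) were among them too.

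Pcp4, a calmodulin regulator, was 2.87 above the next pool, Ptgs2, the cyclooxygenase gene induced in inflammation, 2.09, and Cltrn, a partner of amino acid transporters, 2.08. Bsph2 (2.01), Kap (2.00) and Sprr1a (1.92), a cornified envelope gene, made up the rest, and of the 15 only Bsph2 was in the epididymal list and Kap in the kidney list. The epididymal list does not hold every gene of that tissue, so absence from it does not show that a gene is not epididymal. It holds family members of Defb26, Defb39 and Rnase12, such as Defb42 and Rnase9. On the same measure Prm1 would have stood in place 3, Smcp and Tnp2 in place 10, Prm2 in place 15, Tnp1 in place 58 and Odf1 in place 63 among the other genes. None of the 15 belonged to the sperm and spermatid list.

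Likeness to the other set was measured by the smaller of the differences between wild type and Myc+/- adipose at 5 and at 24 months. Of the 19928 other genes 4 were lower in Myc+/- by more than 1 log2 at both ages, or 0.0201%, and 34 by more than 0.5, or 0.171%. The 4 were Sntn (1.46), Sectm1b (1.15), Calml3 (1.08), a calmodulin-like gene of epithelia, and ccdc198 (1.04). B4galnt2 (0.93), a glycosyltransferase gene, Dcdc2a (0.86), a gene of primary and motile cilia, and Slc26a3 (0.82), a chloride and bicarbonate exchanger, came next. They were followed by 1700007K13Rik (0.76), Ccl28 (0.73), a chemokine of mucosal epithelia, Adcy8 (0.73), Gm609 (0.72) and Tmem212 (0.71).

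Slc9a3 (0.68), a sodium and proton exchanger of absorptive epithelia, Chad (0.66) and Dsp (0.66), the desmoplakin gene, completed the first 15. By this measure Fam183b would have stood in place 1, Plet1 in place 4, Mmp7 in place 5 and Adgrg2 in place 13. Promoter windows were found for 14 of the 15 genes of the sperm pattern and for 12 of the 15 of the other. The motif TGANNTCA was present upstream of 2 of the former and 3 of the latter, and the X-box-like motif of Fam183b upstream of none of them.

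**Figure D4:**
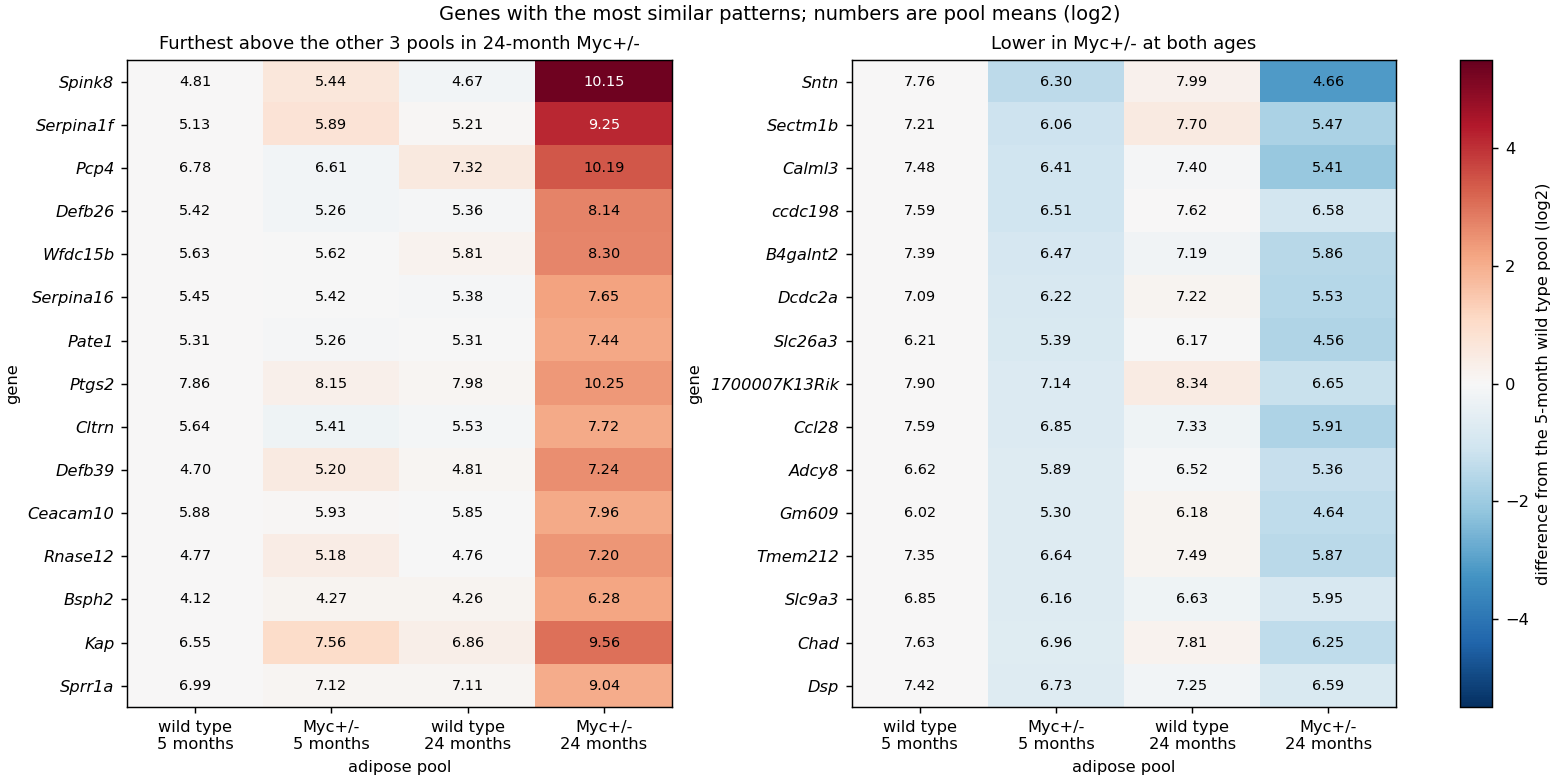
Mean log2 expression in the 4 adipose pools is written in each cell for the 15 genes nearest to either pattern, and the colour gives the log2 difference from the gene's 5-month wild type pool. Spink8 goes from at most 5.44 in the other pools to 10.15 in 24-month Myc+/- adipose, and Sntn from 7.99 in 24-month wild type to 4.66 in 24-month Myc+/- adipose.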

How the data were processed

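Per the submitters' processing notes, the values came from Affymetrix Expression Console and RMA, with versions and settings not given in the sources used here, and the authors deposited them as log2 values per probe set. The labelling chemistry is not settled, since the labels mention both a 3' IVT kit and a whole-transcript kit. They also mention 2 homogenization methods but do not assign them to samples, so no comparison of these was possible. The genome build of the array annotation is not given. Of 35556 probe sets, 21789 had 1 gene symbol in the annotation table, 1621 had several and 12146 were not listed. A RefSeq gene table (GRCm38.p6) held the Entrez identifier of 21698 of the former and changed 0 symbols.

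The values were used as deposited, with no filter on dim probe sets, since Tnp1, Tnp2 and Odf1 lie under the 40th percentile in adipose. limma 3.58.1 in R 4.3.3 was fitted to the 36 arrays (12 group means, 24 residual degrees of freedom, intensity trend in eBayes). These arrays are technical, so this fit compares RNA mixtures. A second fit used the 12 pool means with tissue, age within tissue and genotype within tissue (3 residual degrees of freedom). The spread behind its p-values is that of a difference across the ages or genotypes, and pools of like mice do not enter it. Adjustment was by Benjamini-Hochberg within each comparison over all 21789 probe sets. The array-level test recovered 99.5% of 200 probe sets simulated with a log2 change of 1 in adipose at 24 months, with 0% of its calls false. Apart from these changes, the simulated pools of a tissue shared the same level and differed by array noise alone. With no spread between pools of mice, this share cannot show how many calls between genotypes or ages are false. The pool-level test recovered 100% of 200 probe sets with a change of 2 for the adipose genotype. Of its calls 7.41% were false, above the 5% that the threshold aims at. The number of arrays limits the precision for an RNA mixture. Having 1 pool per group limits what can be said about genotype or age.

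The genes and the 13 marker lists (232 of 247 entries measured) were chosen with earlier results of these data known. Named besides the 10 genes were the 15 genes nearest to each pattern and, from a list, at most 6 genes with the largest range over the 4 adipose pools, except where the text says otherwise. Same-numbered adipose arrays of different pools had deviations that correlated at -0.17 to 0.27 (median 0.0468, 18 pairs), so the numbers do not pair arrays. Alternatives were a filter on dim probe sets, another minimum fold, other moderation, renewed normalization, tissues fitted alone, a replicate block, and arrays or pools left out.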

Additional observations from a re-analysis of the deposited data

Results flagged for a closer look

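For 5 results in adipose the same contrast had opposite signs in 2 groups on every array, and the difference between the contrasts was not tested. Myc+/- minus wild type was 3.18 at 24 months and -0.41 at 5 months for Prm1, 1.99 and -0.32 for Prm2, and 2.07 and -0.32 for Smcp. The 24-month minus 5-month difference was -1.73 in Myc+/- and 0.22 in wild type for Mmp7, and -0.86 and 0.40 for Plet1. The genes were listed for their adipose values and each group is 1 pool.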

How the results depend on the processing

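The replicate block, array numbers as a term, left all 23 counts it was run for within 1.5 times (for example 226 and 234 probe sets higher in Myc+/- adipose at 5 and 24 months), as did moderation without a trend and adipose arrays fitted alone. Of the adipose differences of the 10 genes, none that exceeded its SD over arrays changed sign. Smaller ones could, such as that of Tnp1 between genotypes at 5 months (0.015 on all arrays), which changed sign with an array number left out. With only probe sets above the 40th percentile in the tissue (the count fell because fewer were tested), probe sets called between genotypes in adipose were 146 higher and 33 lower at 5 months, 74 and 83 at 24 months, and 510 higher with age in Myc+/-. Under that filter sperm genes called higher were 2 at 24 months, 1 with age in wild type, 3 with age in Myc+/- and 2 in the pool-level age comparison, epididymal genes 2 at 24 months and 3 with age in Myc+/-, motile cilium genes lower 0 at either age, and members called with age in liver 0 in each genotype and 0 at the pool level. With a minimum of 2-fold, calls were 65 higher and 7 lower at 5 months, 96 and 44 at 24 months, 354 and 72 with age in wild type, and 260 and 44 in Myc+/-; sperm genes 8 at 24 months and 11 with age in Myc+/-, epididymal genes 6 with age in Myc+/-, and motile cilium genes 1 lower at 5 and 3 at 24 months. With each tissue fitted alone the pool-level counts were 1117 higher and 934 lower with age in adipose, 2 sperm genes with age, 0 lower for the genotype, and 4 members with age in liver and 1 in muscle. Leaving out 1 adipose pool or 1 array number, adipose age counts were 605 to 1525 higher and 282 to 1485 lower, with 3 to 17 sperm genes. Likewise genotype counts were 0 to 93 higher and 1 to 57 lower, with 0 to 8 sperm, 0 to 8 epididymal and 0 to 5 motile cilium genes, the highest without a 5-month pool. Members called with age at the pool level were 1 to 3 in liver and 0 to 1 in muscle. Leaving out an array number gave 3 to 5 sperm genes with age in wild type adipose, 1 to 2 members with age in Myc+/- liver and 0 to 1 in wild type muscle. For single genes it gave, between genotypes at 5 months, -0.47 to -0.37 for Prm1, -0.48 to -0.23 for Prm2, -0.38 to -0.11 for Tnp2, -1.11 to -0.91 for Mmp7 and -1.13 to -1.003 for Plet1. With age it gave 2.29 to 2.65 for Tnp2 in Myc+/-, and 1.89 to 2.07 for Smcp and 0.36 to 0.80 for Odf1 in wild type. Renewed quantile normalization gave 4.67 for Prm1 and 4.42 for Smcp with age in Myc+/-, 2.20 for Smcp between genotypes at 24 months and -1.12 for Plet1 at 5 months, and centring on array medians gave 4.35 for Smcp with age in Myc+/-. Where no reason is given, the cause was not tested. No alternative probe set could be tried, since each gene had 1.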
